A study of Mus musculus with 6 samples.

Results

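The 10 genes described here encode the enzymes of the lower arm of glycolysis, from aldolase to pyruvate kinase, in their alternative isoforms. They are *Aldoa*, *Aldoc*, *Gapdh*, *Pgk1*, *Pgam1*, *Pgam2*, *Eno1*, *Eno2*, *Eno3* and *Pkm*. They were chosen by symbol, with earlier results of these data known. The study names glycolysis among the pathways over-represented in the genes that rose in hearts without *Smyd1*. The 10 genes fill 11 of the 54532 rows of the raw count table, because 2 rows carry the symbol *Aldoa*. All 11 rows were among the 19372 genes with enough counts for a test.

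The RNA came from 6 mouse hearts at E9.5, of which 3 were *Smyd1-KO* and 3 were WT, with RNA extracted from individual hearts. *Smyd1* encodes a histone methyltransferase of heart and skeletal muscle. The *Smyd1-KO* embryos were homozygous for a mutated *Smyd1* allele of a line kept as *Smyd1*+/- mice, so the allele was present in every cell of the embryo and not in cardiomyocytes alone. No treatment was given to either genotype, embryos of both sexes could enter, and the study refers to the WT embryos as littermates.

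Glycolysis splits glucose into pyruvate and yields ATP without oxygen. Aldolase cleaves the 6-carbon sugar, GAPDH and phosphoglycerate kinase carry out the oxidation and the first ATP-yielding step, phosphoglycerate mutase and enolase rearrange and dehydrate the product, and pyruvate kinase makes pyruvate and ATP. Several steps have a broadly used isoform and a tissue isoform. *Aldoc* and *Eno2* are the brain forms, and *Pgam2* and *Eno3* are the forms of striated muscle, including heart. The early embryonic heart is known to rely on glycolysis before its mitochondria mature, and hypoxia-inducible factors are known activators of glycolysis genes.

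Of the 10 genes, 6 were higher in *Smyd1-KO* hearts (*Aldoa*, *Aldoc*, *Gapdh*, *Pgk1*, *Pgam1* and *Pkm*), none was lower, and 4 did not pass the test (*Pgam2*, *Eno1*, *Eno2* and *Eno3*). A gene was called when its adjusted *P* in edgeR's quasi-likelihood test was under 0.05 and its log2 fold change was 0.5 or more in either direction. Among all tested genes 2.86% were called higher and 1.42% were called lower. DESeq2, which calls more genes in these hearts (5.78% higher and 3.21% lower), called 8 of the 10 higher, with *Eno1* and *Eno2* added. The log2 fold change of *Smyd1-KO* over WT was above 0 in all 11 rows, with a median of 0.63, beside a median of -0.00255 over all tested genes. In 8 of the 11 rows every *Smyd1-KO* heart lay above every WT heart, an arrangement found in 15.9% of all tested genes. Of the 2435 tested genes with a mean level of 100 CPM or more, which include 8 of the 10 genes, 3.9% were called higher and 17.5% did not overlap in that direction. The count of 6 changed when 1 heart was left out. It was 7 without *Smyd1-KO* heart 1, 2 without *Smyd1-KO* heart 2 and 3 without *Smyd1-KO* heart 3. It was 6 without WT heart 1, and 1, the gene *Aldoc*, without WT heart 2 and again without WT heart 3. The log2 fold changes of the 6 genes stayed at 0.47 or more in each of these fits. The share of all tested genes called in these fits is not given here. Whether the loss of calls was particular to these genes was not tested.

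The promoters of 4 of the genes are shown here to put sequence beside these results. They are those of 3 genes that rose and hold the letters ACGTG, and of the muscle isoform *Pgam2*, which did not pass the test and lacks them. The 4 were picked by both traits, so the contrast between them is not a result. Each is the 250 bases before a transcription start in the RefSeq annotation, on build GRCm38, written 5′ to 3′ on the gene's own strand. Capitals mark the letters ACGTG and GCGTG, or their reverse complements, which form the core bound by hypoxia-inducible factors. ACGTG is also part of the E-box CACGTG.
Pgk1: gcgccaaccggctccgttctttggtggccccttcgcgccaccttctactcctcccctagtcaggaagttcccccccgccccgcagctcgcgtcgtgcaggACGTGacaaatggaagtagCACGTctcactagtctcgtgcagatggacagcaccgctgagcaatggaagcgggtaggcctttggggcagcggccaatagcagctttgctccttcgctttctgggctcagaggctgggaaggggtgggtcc
Aldoa: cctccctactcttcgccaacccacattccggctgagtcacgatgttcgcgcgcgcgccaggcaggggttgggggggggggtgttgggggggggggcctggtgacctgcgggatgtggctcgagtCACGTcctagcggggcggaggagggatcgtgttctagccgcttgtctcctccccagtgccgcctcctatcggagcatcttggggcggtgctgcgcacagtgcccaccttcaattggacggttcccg
Pgam1: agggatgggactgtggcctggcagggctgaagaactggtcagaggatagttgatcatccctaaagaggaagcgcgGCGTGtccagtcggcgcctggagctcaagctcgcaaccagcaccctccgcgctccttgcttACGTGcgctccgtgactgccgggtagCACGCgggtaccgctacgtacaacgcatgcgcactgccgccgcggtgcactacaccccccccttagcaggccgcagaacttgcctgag
Pgam2: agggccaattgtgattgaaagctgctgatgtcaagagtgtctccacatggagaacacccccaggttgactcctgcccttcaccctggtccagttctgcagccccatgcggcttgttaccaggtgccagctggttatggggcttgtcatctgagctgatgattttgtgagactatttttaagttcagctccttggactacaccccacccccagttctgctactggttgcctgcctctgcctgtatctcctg
The *Pgk1* window lies at chrX:106186850-106187099 on the plus strand and holds ACGTG at 150 bases before the start and its reverse complement at 131 bases. The *Aldoa* window, at chr7:126799255-126799504 on the minus strand, belongs to a start inside the annotated span of the gene and holds the reverse complement of ACGTG at 126 bases. The *Pgam1* window, at chr19:41911621-41911870 on the plus strand, holds GCGTG at 175 bases, ACGTG at 114 bases and the reverse complement of GCGTG at 88 bases. The *Pgam2* window, at chr11:5803797-5804046 on the minus strand, holds neither set of letters. RefSeq gave 16 such windows for the 10 genes. Either set of letters was present in 12 of the 16 windows, belonging to 8 genes, and in 38.6% of 32851 promoters of all genes. ACGTG alone was present in 5 of the 16 windows, belonging to 4 genes, and in 16.6% of all promoters. GCGTG was present in 8 windows and in 28.2% of all promoters. Some windows of a gene overlap, so the counts of windows hold some sites more than once. The *Aldoa* windows with ACGTG hold the same site, and overlapping *Eno1* windows hold the same GCGTG sites. *Aldoc* and *Gapdh* rose and hold GCGTG but no ACGTG. *Eno1* and the muscle isoform *Eno3*, which did not pass the test, hold GCGTG or its reverse complement, so the letters are not particular to the genes that rose. A match of letters is a description of the window, and binding was not measured in these data.

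Depth was 48627825 to 64217529 counts per heart, with TMM factors from 0.979 to 1.04, and values per heart are given as CPM, counts scaled to a common library total with the TMM factors. *Smyd1* itself had 101, 222 and 206 CPM in hearts 1, 2 and 3 of the *Smyd1-KO* group and 414, 379 and 270 CPM in those of the WT group, so the genotypes did not overlap (log2 fold change -1.01, SE 0.300, adjusted *P* 0.0973). The counts span the whole gene, so they do not show the mutated part of the allele. The summed level of 9 cardiomyocyte genes was 8397, 17315 and 17486 CPM in *Smyd1-KO* hearts against 18854, 17170 and 11008 CPM in WT hearts, with 0 of the 9 genes called. *Smyd1-KO* heart 1 and WT heart 3 had the lowest sums. *Smyd1-KO* heart 1 also had the highest sum of 9 neural genes, 145 CPM against 22.2 to 52.6 CPM in the other 5 hearts. Most of it was *Sox2*, at 81.3 CPM, and *Pax6*, at 34.3 CPM. *Tubb3*, *Elavl3*, *Elavl4*, *Nefl* and *Nefm* were also highest in that heart, at 7.01 CPM or less. The remaining neural genes were highest in WT hearts, *Stmn2* at 3.99 CPM in WT heart 1 and *Snap25* at 0.740 CPM in WT heart 2. The sum of 6 skeletal muscle genes was likewise highest in *Smyd1-KO* heart 1, at 6.07 CPM against 0.756 to 1.76 CPM in the other 5 hearts, including 2.61 CPM of the regulator *Myog*, which was at 0 in 3 of the other hearts. The regulators *Myod1* and *Myf6* were at 0.309 and 0.144 CPM at most. *Ckm*, of the same list, went the other way. It was lowest in *Smyd1-KO* heart 1, at 0.267 CPM against 0.330 to 1.10 CPM in the other 5 hearts. In whole hearts, fewer cells of a type and less RNA per cell cannot be told apart.

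Together the 11 rows took 1.82%, 2.05% and 1.87% of all counts in *Smyd1-KO* hearts 1, 2 and 3 and 1.31%, 1.15% and 1.15% in WT hearts 1, 2 and 3. The means were 1.91% ± 0.122 (SD, n = 3) and 1.20% ± 0.0947 (SD, n = 3). Every *Smyd1-KO* heart lay above every WT heart, and the two-sided exact permutation test over hearts gave *P* = 0.1, the smallest value that 3 against 3 hearts allow.

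**Figure D1:**
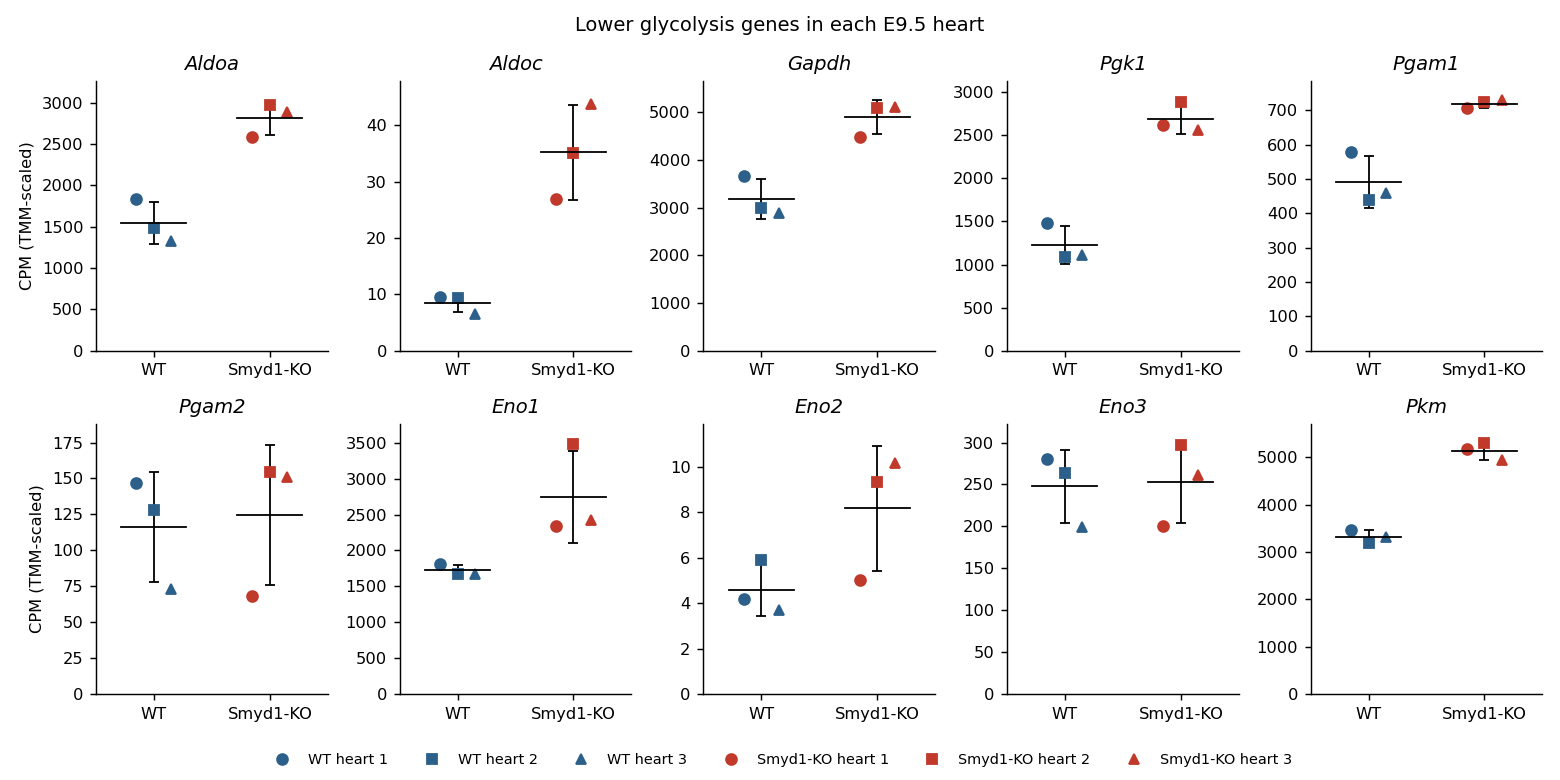
Level of each of the 10 genes in each heart, in CPM scaled by TMM, with 1 panel per gene, 1 symbol per heart, and the mean and SD of the 3 hearts per genotype as lines. Each y axis starts at 0 and has its own scale. *Aldoa*, *Aldoc*, *Gapdh*, *Pgk1*, *Pgam1*, *Eno1* and *Pkm* do not overlap between genotypes, whereas *Pgam2*, *Eno2* and *Eno3* do.

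*Aldoa* and *Aldoc* were both higher in *Smyd1-KO* hearts, the brain form *Aldoc* 4.17-fold and the broad form *Aldoa* 1.82-fold. *Aldoa* (ENSMUSG00000030695, chr7:126795234-126800751 in GRCm38, minus strand), which encodes the main aldolase of muscle and most embryonic tissue, had 2582, 2976 and 2882 CPM in *Smyd1-KO* hearts 1, 2 and 3. In WT hearts 1, 2 and 3 it had 1829, 1480 and 1331 CPM. The *Smyd1-KO* hearts were close to each other and all above the WT hearts (log2 fold change 0.86, SE 0.140, adjusted *P* 0.0199). *Aldoc* (chr11:78322968-78327781) had 26.9, 35.1 and 43.7 CPM in *Smyd1-KO* hearts against 9.48, 9.37 and 6.53 CPM in WT hearts. Its genotypes were the furthest apart of the 10 genes (log2 fold change 2.06, SE 0.222, adjusted *P* 0.00627). The *Aldoc* call held in all 6 fits that left out 1 heart, while *Aldoa* lost its call without *Smyd1-KO* heart 2, *Smyd1-KO* heart 3, WT heart 2 or WT heart 3 (adjusted *P* 0.0809, 0.0583, 0.117 and 0.0883). A separate row with the symbol *Aldoa* (ENSMUSG00000114515, chr7:126800790-126809108), just upstream of the gene, held 4.13 to 5.53 CPM in *Smyd1-KO* and 2.62 to 3.64 CPM in WT hearts and did not pass the test (log2 fold change 0.51, adjusted *P* 0.185).

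The share of aldolase RNA that came from *Aldoc* was small in both genotypes and did not overlap between them. Computed per kilobase of exon, *Aldoc* made up 0.920%, 1.04% and 1.33% of aldolase RNA in *Smyd1-KO* hearts 1, 2 and 3 and 0.460%, 0.562% and 0.436% in WT hearts 1, 2 and 3. All *Smyd1-KO* hearts lay above all WT hearts, at 1.10% ± 0.213 and 0.486% ± 0.0667 (SD, n = 3). With the length of the longest transcript in place of all exonic bases the shares were 0.688% and 0.303%. The log2 ratio of *Aldoc* to *Aldoa* was 1.18 higher in *Smyd1-KO* hearts (two-sided exact permutation test, *P* = 0.1, adjusted *P* = 0.2 over the 4 isoform ratios computed), which is the smallest unadjusted value the design allows. Aldolase RNA as a whole was 0.88 higher on the log2 scale, and *Aldoa* gave 98.9% of it in *Smyd1-KO* hearts.

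*Gapdh* and *Pgk1*, the genes of the middle 2 steps, were both higher in *Smyd1-KO* hearts. *Gapdh* (chr6:125161715-125166467), often used as a reference gene in expression assays, had 4482, 5102 and 5117 CPM in *Smyd1-KO* hearts 1, 2 and 3, against 3657, 3003 and 2884 CPM in WT hearts 1, 2 and 3. Every *Smyd1-KO* heart lay above every WT heart, and the fitted difference between genotypes was 1.54-fold (log2 fold change 0.62, SE 0.127, adjusted *P* 0.0383). It lost its call without *Smyd1-KO* heart 2, *Smyd1-KO* heart 3, WT heart 2 or WT heart 3 (adjusted *P* 0.142, 0.102, 0.173 and 0.154). *Pgk1* (chrX:106187100-106203699, plus strand), the phosphoglycerate kinase used outside the testis, had 2623, 2888 and 2559 CPM in *Smyd1-KO* hearts against 1478, 1085 and 1117 CPM in WT hearts. After *Aldoc* it showed the next highest fold change of the 10 genes, 2.19-fold with a 95% interval of 1.74 to 2.77 (log2 fold change 1.13, SE 0.143, adjusted *P* 0.00972). Its call was lost without WT heart 2 and without WT heart 3 (adjusted *P* 0.0694 and 0.0649). The testis form *Pgk2* was at 0 counts in all 6 hearts, so *Pgk1* was the only phosphoglycerate kinase gene with counts.

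The phosphoglycerate mutase genes differed in their calls, with *Pgam1* higher and *Pgam2* not called; the difference itself is tested by their ratio. *Pgam1* (chr19:41911923-41918660), the brain or broad form, had 706, 723 and 730 CPM in *Smyd1-KO* hearts 1, 2 and 3, against 578, 439 and 459 CPM in WT hearts 1, 2 and 3. The *Smyd1-KO* hearts were nearly level and all above the WT hearts, but the adjusted *P* lay close to its threshold (log2 fold change 0.55, SE 0.121, adjusted *P* 0.0471). Among the fits without a heart, the one without WT heart 1 kept the call, and it was missed without *Smyd1-KO* heart 1, 2 or 3 or WT heart 2 or 3 (adjusted *P* 0.0534, 0.142, 0.112, 0.184 and 0.168). *Pgam2* (chr11:5801640-5803733), the muscle form, had 68.2, 154 and 151 CPM in *Smyd1-KO* hearts against 147, 128 and 73.0 CPM in WT hearts. Each genotype held 2 hearts at the higher level and 1 far below, and the 95% interval of its log2 fold change ran from -0.73 to 0.94 (estimate 0.10, adjusted *P* 0.885). The share of phosphoglycerate mutase RNA from *Pgam2* was 28.3% ± 8.45 in *Smyd1-KO* and 35.2% ± 7.04 in WT hearts (SD, n = 3), and the hearts overlapped. The log2 ratio of *Pgam2* to *Pgam1* differed by -0.49 (two-sided exact permutation test, *P* = 0.4).

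Among the enolases, the broad form *Eno1* was higher in every *Smyd1-KO* heart without passing the adjusted threshold, and the muscle form *Eno3* was not called. *Eno1* (chr4:150236721-150248879) had 2336, 3487 and 2422 CPM in *Smyd1-KO* hearts 1, 2 and 3, against 1809, 1675 and 1677 CPM in WT hearts 1, 2 and 3. *Smyd1-KO* heart 2 was far above the other *Smyd1-KO* hearts, and the genotypes did not overlap (log2 fold change 0.68, SE 0.165, adjusted *P* 0.0613). It was called without *Smyd1-KO* heart 1 (adjusted *P* 0.0378). *Eno3* (chr11:70657202-70662513) had 201, 297 and 261 CPM in *Smyd1-KO* hearts against 281, 264 and 199 CPM in WT hearts. The hearts of the genotypes interleaved (log2 fold change 0.03, 95% interval -0.39 to 0.45, adjusted *P* 0.939). *Eno2* (chr6:124760053-124769673), the neuronal form, was low, with 5.02, 9.32 and 10.2 CPM in *Smyd1-KO* hearts against 4.16, 5.91 and 3.68 CPM in WT hearts. *Smyd1-KO* heart 1 lay among the WT values, and the estimated log2 fold change was 0.84 with an interval of 0.12 to 1.55 (adjusted *P* 0.148). Without *Smyd1-KO* heart 1, which had the highest neural marker sum, *Eno2* was called at a log2 fold change of 1.09 (adjusted *P* 0.0368). The other fits that left out 1 heart did not call it.

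*Eno3* made up 20.9%, 20.8% and 24.9% of enolase RNA in *Smyd1-KO* hearts 1, 2 and 3 and 32.4%, 32.6% and 26.8% in WT hearts 1, 2 and 3. The means per kilobase of exon were 22.2% ± 2.34 and 30.6% ± 3.30 (SD, n = 3), with every *Smyd1-KO* heart below every WT heart. The size of this share depended on the length used: the annotated exons of *Eno1* cover 5379 bases and its longest transcript 2027 bases, and with longest transcripts the means were 10.7% and 15.6%. The log2 ratio of *Eno3* to *Eno1* differed by -0.63 (two-sided exact permutation test, *P* = 0.1, adjusted *P* = 0.2). The log2 ratio of *Eno2* to *Eno1* differed by 0.15 (two-sided exact permutation test, *P* = 0.7), and *Eno2* made up 0.265% and 0.210% of enolase RNA.

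**Figure D2:**
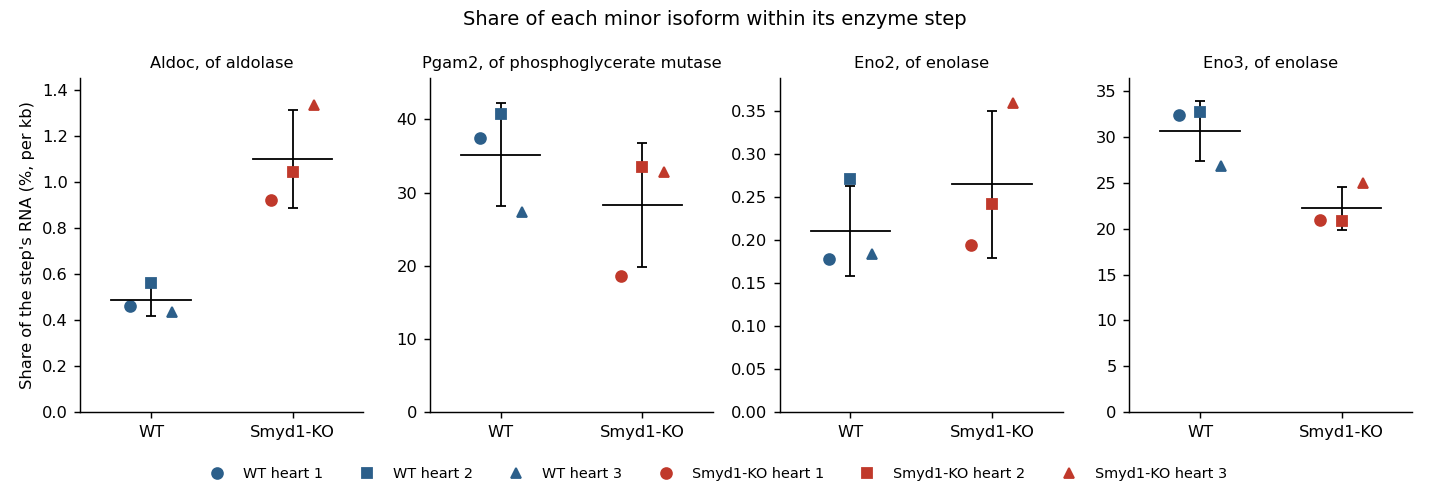
Share of *Aldoc*, *Pgam2*, *Eno2* and *Eno3* in the RNA of their enzyme step in each heart, in percent of CPM per kilobase of exon, with the mean and SD of the 3 hearts per genotype as lines. The *Aldoc* share is higher and the *Eno3* share lower in all 3 *Smyd1-KO* hearts, while the *Pgam2* and *Eno2* shares overlap between genotypes. *Eno1b* is not part of the enolase sum drawn here.

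*Eno1* shares reads with *Eno1b*, a near copy of its messenger RNA on chromosome 18 that is annotated as protein coding. All annotated *Eno1* transcripts together hold 5556 different stretches of 75 bases, the read length. Of these, 1254 (22.6%) also occur in *Eno1b*, so its counts and those of *Eno1* cannot be fully told apart. The longest *Eno1* transcript has 2027 bases, so the shared part of 1 transcript can be larger, and it was not computed. *Eno1b* had 790, 425 and 797 CPM in *Smyd1-KO* hearts 1, 2 and 3, against 606, 556 and 583 CPM in WT hearts 1, 2 and 3 (log2 fold change 0.21, SE 0.229, adjusted *P* 0.618). It held 25.3%, 10.9% and 24.8% of the summed *Eno1* and *Eno1b* counts in *Smyd1-KO* hearts and 25.1%, 24.9% and 25.8% in WT hearts. The share was nearly constant in 5 hearts and far lower in *Smyd1-KO* heart 2, the heart with the highest *Eno1*. The sum of both rows was 3127, 3912 and 3219 CPM in *Smyd1-KO* hearts against 2416, 2231 and 2259 CPM in WT hearts, with no overlap. When *Eno1* was summed with its 3 copies that shared at least 1% of its stretches, it was called higher (log2 fold change 0.57, adjusted *P* 0.0392). With *Eno1b* counted among the enolases, the *Eno3* share per kilobase of exon was 14.3% in *Smyd1-KO* and 18.4% in WT hearts and the hearts overlapped, whereas with longest transcripts it was 8.49% and 11.8% and they did not. The log2 ratio of *Eno3* to *Eno1* summed with its copies differed by -0.54 (two-sided exact permutation test, *P* = 0.1).

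**Figure D3:**
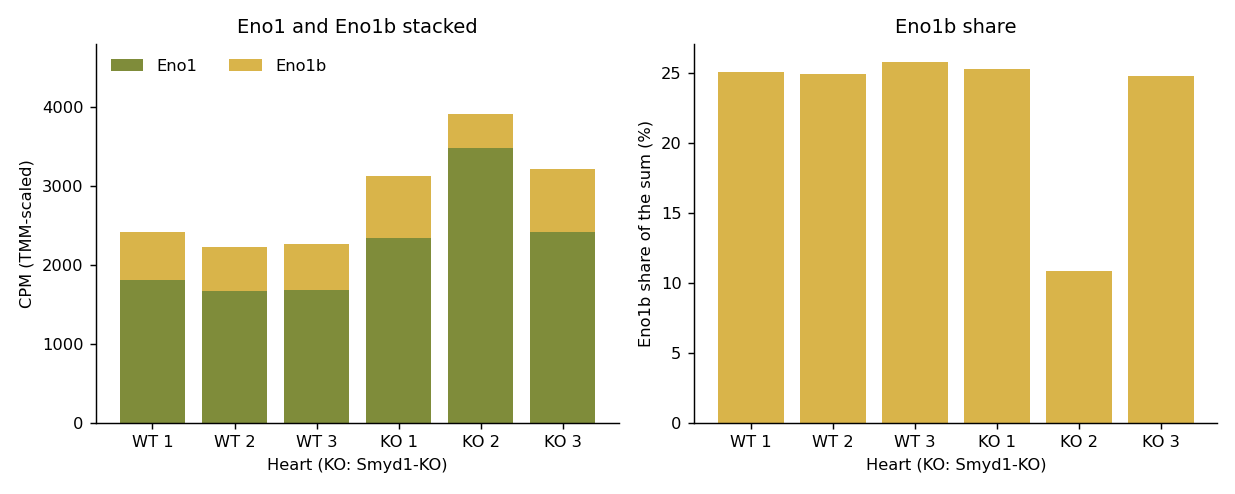
Left, CPM of *Eno1* and *Eno1b* stacked in each heart, and right, the share of *Eno1b* in their sum in percent. The share is 24.8% to 25.8% in 5 hearts and 10.9% in *Smyd1-KO* heart 2, while the stacked height is above all WT hearts in each *Smyd1-KO* heart.

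Copies of the other genes held fewer counts. The 76 copies of *Gapdh* together held 2.99% of its counts, the 2 copies of *Pgam1* 3.58%, the 2 of *Pkm* 3.42% and the 2 of *Pgk1* 0.160%. Among the named copies, those called higher were the pseudogene *Pgam1-ps2*, at a log2 fold change of 0.68 (adjusted *P* 0.0234), and *AC160637.1*, an annotation that overlaps *Pkm*, at 0.71 (adjusted *P* 0.0359). The *Pkm* pseudogene *Gm6560*, at a log2 fold change of 0.49 (adjusted *P* 0.0185), fell just short of the fold limit, and the *Eno1* pseudogene *Gm5855* did not pass the test (log2 fold change 0.18, adjusted *P* 0.436).

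*Pkm*, the pyruvate kinase gene of muscle and embryonic tissue, was higher in *Smyd1-KO* hearts with little spread in either genotype. *Pkm* (chr9:59656368-59679375) had 5173, 5302 and 4936 CPM in *Smyd1-KO* hearts 1, 2 and 3, against 3471, 3184 and 3313 CPM in WT hearts 1, 2 and 3. The gap between genotypes was several times the spread within either (log2 fold change 0.63, SE 0.0940, adjusted *P* 0.0161). Its call was lost without *Smyd1-KO* heart 2, WT heart 2 or WT heart 3 (adjusted *P* 0.0909, 0.110 and 0.0947). The counts are per gene, so the embryonic and adult splice forms of *Pkm* were not told apart. *Pklr*, the pyruvate kinase of liver and red cells, gave 0.0171% of pyruvate kinase RNA in *Smyd1-KO* and 0.203% in WT hearts.

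**Figure D4:**
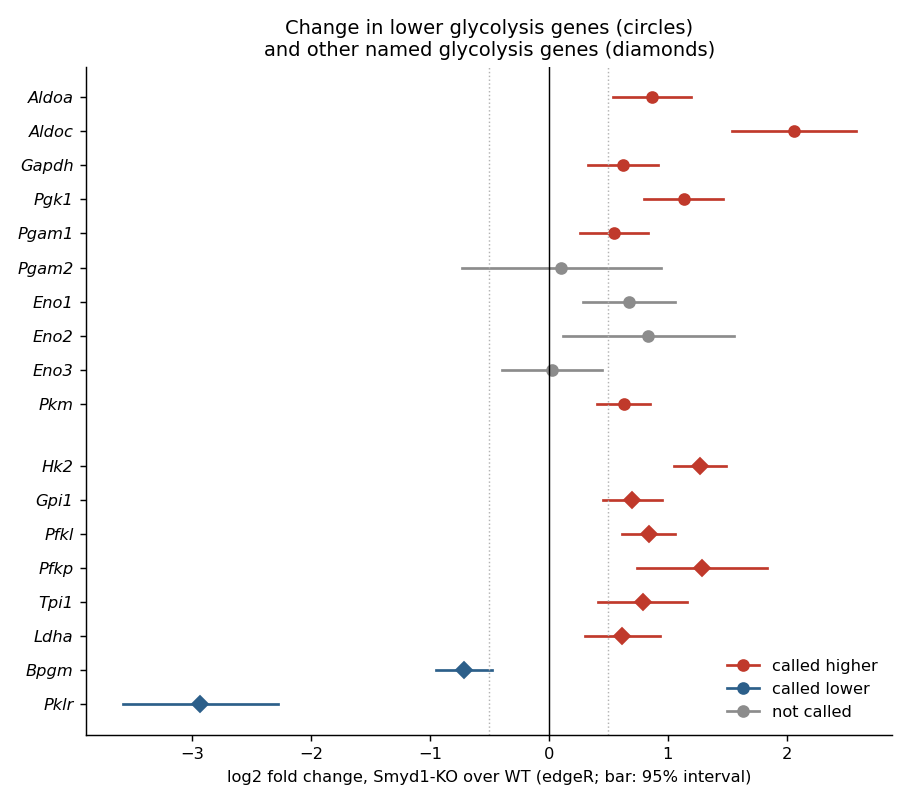
Log2 fold change of *Smyd1-KO* over WT with its 95% interval from edgeR, for the 10 lower glycolysis genes as circles and for other glycolysis genes that were called as diamonds. Dotted lines mark a log2 fold change of 0.5 in either direction. The intervals of *Pgam2* and *Eno3* cross 0, those of the other 8 lie above it, and *Bpgm* and *Pklr* are the genes below it.

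Ranked by CPM per kilobase of exon in WT hearts, *Gapdh* was highest at 770 ± 101, followed by *Pkm* at 664 ± 28.7, *Pgk1* at 547 ± 97.2 and *Aldoa* at 531 ± 87.8 (SD, n = 3). *Pkm* overlapped with *Pgk1*, and *Pgk1* with *Aldoa*. *Eno1* at 320 and *Pgam1* at 248 came next, then the muscle isoforms *Eno3* at 142 and *Pgam2* at 138, whose hearts overlapped. *Aldoc* at 2.59 and *Eno2* at 0.974 were far below all of these. In *Smyd1-KO* hearts *Pgk1* at 1199 and *Gapdh* at 1186 overlapped at the top, above *Pkm* at 1027 and *Aldoa* at 966, while *Eno3* at 145 and *Pgam2* at 148 stayed together. With the longest transcript as the length, WT levels per kilobase were 1366 for *Pkm*, 998 for *Aldoa*, 967 for *Gapdh*, 849 for *Eno1* and 672 for *Pgk1*, so the order among these 5 genes depended on the length used. With the longest transcript, *Smyd1-KO* levels were 2112 for *Pkm*, 1816 for *Aldoa*, 1490 for *Gapdh*, 1474 for *Pgk1* and 1356 for *Eno1*. *Eno3* and *Pgam2* were then at 162 and 148. The order in *Smyd1-KO* hearts thus also depended on the length, both at the top and between the muscle isoforms.

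The muscle isoforms varied within each genotype together with the cardiomyocyte genes. *Pgam2* and *Eno3* were lowest in *Smyd1-KO* heart 1 and WT heart 3, the hearts with the lowest cardiomyocyte sums. This was not particular to the muscle isoforms. Within their genotype, *Aldoa*, *Aldoc*, *Gapdh* and *Eno2* were also lowest in these hearts, whereas *Pgk1*, *Pgam1*, *Eno1* and *Pkm* were not lowest in both. Without these 2 hearts, an alternative chosen after the data had been seen, the log2 fold change was 0.15 for *Pgam2* (adjusted *P* 0.404) and 0.03 for *Eno3* (adjusted *P* 0.880). *Pgk1* was called without them at 1.09 (adjusted *P* 0.0485) and *Aldoc* at 2.06 (adjusted *P* 0.00706), and the number of the 10 genes called higher was 2. The log2 fold changes of the genes that lost their call were 0.82 for *Aldoa*, 0.62 for *Gapdh*, 0.51 for *Pgam1* and 0.62 for *Pkm*, close to those in all 6 hearts. The part of the cardiomyocyte genes in these results was not tested.

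**Figure D5:**
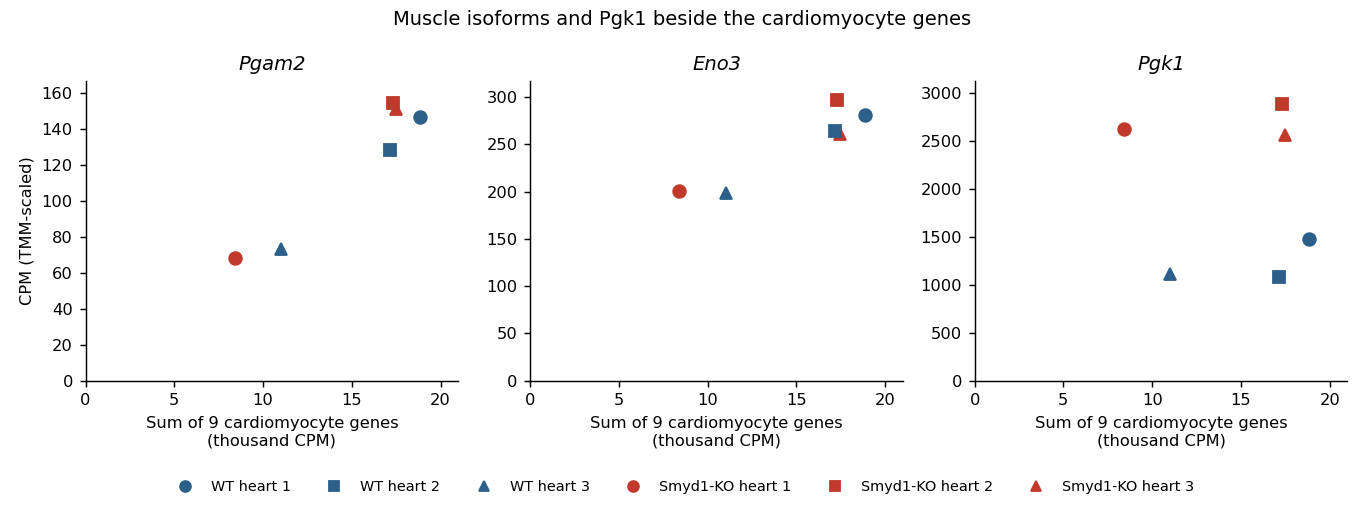
CPM of *Pgam2*, *Eno3* and *Pgk1* in each heart against the summed CPM of 9 cardiomyocyte genes, with the x axis in units of 1000 CPM. *Pgam2* and *Eno3* are lowest in the hearts at 8397 and 11008 CPM of cardiomyocyte genes, *Smyd1-KO* heart 1 and WT heart 3, whereas *Pgk1* separates by genotype at either end of the axis. *Aldoa*, *Aldoc*, *Gapdh* and *Eno2*, not drawn, are also lowest in these hearts within their genotype.

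Of 17 other glycolysis genes, 15 were tested, 6 were higher and 2 were lower in *Smyd1-KO* hearts, with a median log2 fold change of 0.39. Over all tested genes, 2.86% were called higher and 1.42% were called lower. The 6 span the pathway around the lower arm: *Hk2* (log2 fold change 1.27), which phosphorylates glucose, *Gpi1* (0.70), the isomerase that follows, the phosphofructokinases *Pfkp* (1.29) and *Pfkl* (0.84), *Tpi1* (0.79), which interconverts the aldolase products, and *Ldha* (0.62), which turns pyruvate into lactate. *Tpi1*, the partner of aldolase, had 1375, 1709 and 1749 CPM in *Smyd1-KO* hearts 1, 2 and 3, against 1128, 845 and 826 CPM in WT hearts 1, 2 and 3, without overlap (SE 0.159, adjusted *P* 0.0372). The muscle phosphofructokinase *Pfkm* was not called (log2 fold change 0.17, adjusted *P* 0.399). The count of 6 was 2 without *Smyd1-KO* heart 2, 3 without *Smyd1-KO* heart 3, 1 without WT heart 2 and 1 without WT heart 3. It was 3 without both hearts with the lowest cardiomyocyte sums. The share of all tested genes called in these fits is not given here.

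Both genes that fell, *Pklr* and *Bpgm*, are known for their role in red cells. *Pklr* had 0.720, 0.609 and 0.385 CPM in *Smyd1-KO* hearts 1, 2 and 3, against 3.74, 4.43 and 4.88 CPM in WT hearts 1, 2 and 3 (log2 fold change -2.93, SE 0.278, adjusted *P* 0.00397), and its call held in all 6 fits that left out 1 heart. *Bpgm*, which makes the 2,3-bisphosphoglycerate of red cells from an intermediate of the lower arm, had 21.5, 19.9 and 17.8 CPM in *Smyd1-KO* hearts against 32.8, 32.7 and 31.9 CPM in WT hearts (log2 fold change -0.72, SE 0.0999, adjusted *P* 0.0136). *Bpgm* lost its call without *Smyd1-KO* heart 2, WT heart 2 or WT heart 3 (adjusted *P* 0.0585, 0.0858 and 0.0670), which left 1 lower gene. The sum of 10 erythroid genes was 28.1, 283 and 164 CPM in *Smyd1-KO* hearts against 750, 1002 and 961 CPM in WT hearts, with 3 of the 10 called lower and all 10 below 0 on the log2 scale. The part of the erythroid genes in the fall of *Pklr* and *Bpgm* was not tested. The other marker sums overlapped or moved less: 8 endothelial genes summed to 609 to 930 CPM in *Smyd1-KO* and 603 to 731 CPM in WT hearts, and 5 epicardial genes to 137 to 255 CPM and 100 to 124 CPM, with none called in either list.

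A mean profile was taken over the 11 rows of the 10 genes, each standardized, with the upstream *Aldoa* row weighted like the others. The 5 genes most like it over the 6 hearts were *Plod1*, *Krt19*, *Rab10*, *Pim3* and *Sars*. They were among 6409 genes compared, all with a mean of 5 or more on the log2 CPM scale. Their Pearson correlations with that mean were 0.997, 0.996, 0.996, 0.996 and 0.994. The 6 points are shared with the comparison of genotypes, so these values describe these libraries. *Krt19*, a keratin, ranged from 129 to 235 CPM in *Smyd1-KO* and from 43.3 to 73.4 CPM in WT hearts, whereas *Rab10*, a vesicle-transport GTPase, ranged only from 159 to 166 CPM and from 147 to 153 CPM. A close profile thus went with both a large and a small difference between genotypes.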

How the data were processed

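RNA-seq covered 6 E9.5 mouse hearts, 3 per genotype, with groups and replicate numbers taken from the sample labels. A figure legend of the study gives 4 replicates per genotype, and the 3 that the labels give were analysed here. The authors selected poly A RNA, sequenced 75-base paired-end reads and aligned them to mm10 with STAR. The deposited table holds raw counts per gene, made by the authors without normalization. The counting tool, annotation release and strand setting are not given in the sources used here. A deposited normalized table was not used.

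The genotypes were compared with edgeR 4.0.16 in R 4.3.3 (filterByExpr, TMM, quasi-likelihood test, Benjamini-Hochberg adjustment over 19372 genes). Intervals have a level of 95%. Per the labels, RNA came from individual hearts. Isoform ratios were log2 ratios of CPM per kilobase, compared by two-sided exact permutation tests over hearts. Gene positions and lengths came from GENCODE M21 on GRCm38, which held 54409 of the 54532 rows, and promoters from RefSeq GRCm38.p6. A near-identical copy shared at least 1% of a gene's 75-base stretches, a definition set after the data had been seen. Tests were tried on simulated counts.

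Named were the 10 genes, other glycolysis genes that were called with *Tpi1*, *Pklr* and *Bpgm*, copies with over 1% of a member's counts, and the 5 genes of closest profile. *Pgk2*, *Pfkm*, *Ckm* and the neural genes were added by name once values had been seen. One gene of the lists is not reported here. The members, gene lists and motifs were chosen with earlier results of these data known.

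The alternatives were DESeq2 1.42.0, RLE and upper-quartile factors, leaving out mitochondrial and haemoglobin genes, no filter, at least 10 counts in every heart, no fold limit, copies summed, a prior count of 2 in the ratios, the longest transcript as length, a block for the replicate number, and each heart left out in turn. Leaving out both hearts with the lowest cardiomyocyte sums was added after the data had been seen.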

Additional observations from a re-analysis of the deposited data

How the results depend on the processing

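Of the 10 genes, 6 were called higher in edgeR's main test, 6 with RLE or upper-quartile factors, 7 with copies summed and 8 with DESeq2, whose background was 5.78%. Leaving out 1 heart gave 1 to 7 of the 10 genes and 1 to 6 of the other glycolysis genes higher, and 1 to 2 of the latter lower. Without both hearts with the lowest cardiomyocyte sums 2 of the 10 and 3 of the others were higher. For the fits that left out hearts, the share of all tested genes called is not given here. No member was called lower under any of 16 alternatives.

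Over the fits that left out 1 heart the log2 fold change of *Pgam2* ranged from -0.14 to 0.40 and that of *Eno3* from -0.10 to 0.17. *Pgam2* reversed to -0.08 without *Smyd1-KO* heart 2, -0.06 without *Smyd1-KO* heart 3 and -0.14 without WT heart 3. *Eno3* reversed to -0.10 without *Smyd1-KO* heart 2 and -0.10 without WT heart 3. The log2 ratio of *Eno2* to *Eno1* ranged from -0.12 to 0.36 over the same fits, and was -0.12 without *Smyd1-KO* heart 3. None of these passed a test, and the cause was not tested.

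With the replicate number as a block, 0 of the 10 genes were called, with 1 other glycolysis gene higher and 0 lower, and 56 genes higher and 3 lower (0.289% and 0.0155%) among all tested genes. The same numbers mark different embryos, and the deviations of same-numbered hearts correlated at -0.216 to -0.0538. Each gene was centred within its genotype, which balances such correlations around 0. They therefore cannot show whether same-numbered hearts shared a litter or batch. *Smyd1-KO* heart 1 correlated best with WT heart 3, at 0.286.

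DESeq2 also called *Eno1* (adjusted *P* 0.00239) and *Eno2* (adjusted *P* 0.0380). With 3 hearts per genotype, the permutation tests cannot reach a *P* below 0.1.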
